A study of Mus musculus with 10 samples.

Results

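The genes described here are 34 genes of the B lymphocyte lineage, read in RNA sequencing libraries of mouse Th17 cultures. They were chosen by gene symbol for known roles in the B cell receptor complex, at the B cell surface, as lineage factors or in receptor signalling, and all 34 were found among the 17493 genes of the deposited table. The cultures had either TMP269, an inhibitor of the class IIa histone deacetylases, or DMSO, which the labels call the control, with 2 libraries in each group. All libraries came from C57BL/6 spleen: naive CD4+ T cells were stimulated on plates coated with antibodies to CD3 and CD28 and kept for 48 to 72 h with 20 ng/mL of IL-6 and 2.5 ng/mL of TGF-beta. The sources used here do not give the dose of TMP269, the time cells spent in it, the age of the mice, any pooling of animals or the purity of the CD4+ T cells. They also do not tell separate animals or cultures apart from repeat preparations, so p-values reflect the spread of these 4 libraries, which may be technical.

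B cells sense antigen through a membrane immunoglobulin that cannot signal alone and is held together with the CD79A and CD79B chains. Src family and SYK kinases act on the tails of these chains, and BLNK, BTK and PLCG2 carry the signal on to calcium release, while coreceptors raise or lower the response. The transcription factors EBF1 and PAX5 commit progenitors to the B lineage, and B cells are abundant in the spleen. Some of the genes are also known from other cells, so the 34 were put into 3 classes from textbook knowledge: 14 largely restricted to B cells (here B restricted), 11 shared with myeloid or dendritic cells and 9 shared with T cells.

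Recovered reads numbered 20837231 and 23259102 in TMP269 replicates 1 and 2 and 25321455 and 20007042 in DMSO replicates 1 and 2. Values below are normalised reads, that is, the reads of a gene divided by the size factor of its library, and are compared between libraries and not between genes. Genes that define helper T cells were present: Cd4 had 9479 and 8896 normalised reads with TMP269 and 8299 and 8263 with DMSO, and Cd3e had 4428 and 4776 normalised reads with TMP269 and 4097 and 4821 with DMSO. Il17a, the defining cytokine gene of Th17 cells, had 750.4 and 786 normalised reads with TMP269 and 1888 and 1949 with DMSO. The ribosomal RNA gene Rn45s took 0.716% and 1.12% of the reads with TMP269, against 0.836% and 2.20% in DMSO replicates 1 and 2, so DMSO replicate 2 stood apart. The 14 B restricted genes together had 2888 and 3091 reads with TMP269 and 5424 and 4176 reads with DMSO, which is 139 and 133 CPM (reads of these genes scaled to the reads of the whole library) with TMP269 and 214 and 209 CPM with DMSO.

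B lineage genes were lower with TMP269 in most cases, but by very different amounts, and a few were higher. All 34 were tested with limma, and 19 were called lower and 2 higher at an adjusted p under 0.05, while 13 were not called. Among all 12535 genes tested, 14.7% were called lower and 12.8% higher. The B cell adaptor gene Bank1 was the lowest of the 34, at 25% of its DMSO level, and the toll-like receptor homologue gene Cd180 the highest, at 169%. The median log2 fold change of the 34 was -0.54, against 0.00 for all tested genes, whose middle 50% lay between -0.23 and 0.26. In 25 of the 34 both TMP269 libraries lay below both DMSO libraries, in 7 both lay above, and in 2 the groups overlapped; among all tested genes 34.0% lay below and 32.6% above. An exact two-sided test on 2 against 2 values cannot give a p below 0.333, so each p here borrows its spread from the genes as a whole, as limma does.

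By class, 8 of the 14 B restricted genes were called lower, with a median log2 fold change of -0.61. None of the 14 was called higher by limma, edgeR or DESeq2, although 1 of them, Fcrl1, was higher at an unadjusted p under 0.05 and was called with equal library totals and with the replicate number as a block. Of the 11 genes shared with myeloid or dendritic cells, 7 were called lower and 1 higher (median -0.92), and of the 9 shared with T cells, 4 were called lower and 1 higher (median -0.39). All 34 genes reached a value of 10 in at least 2 libraries, and Vpreb3 alone had a library under that value. Fewer B cells in a culture and less RNA of these genes per cell cannot be told apart in bulk libraries.

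**Figure D1:**
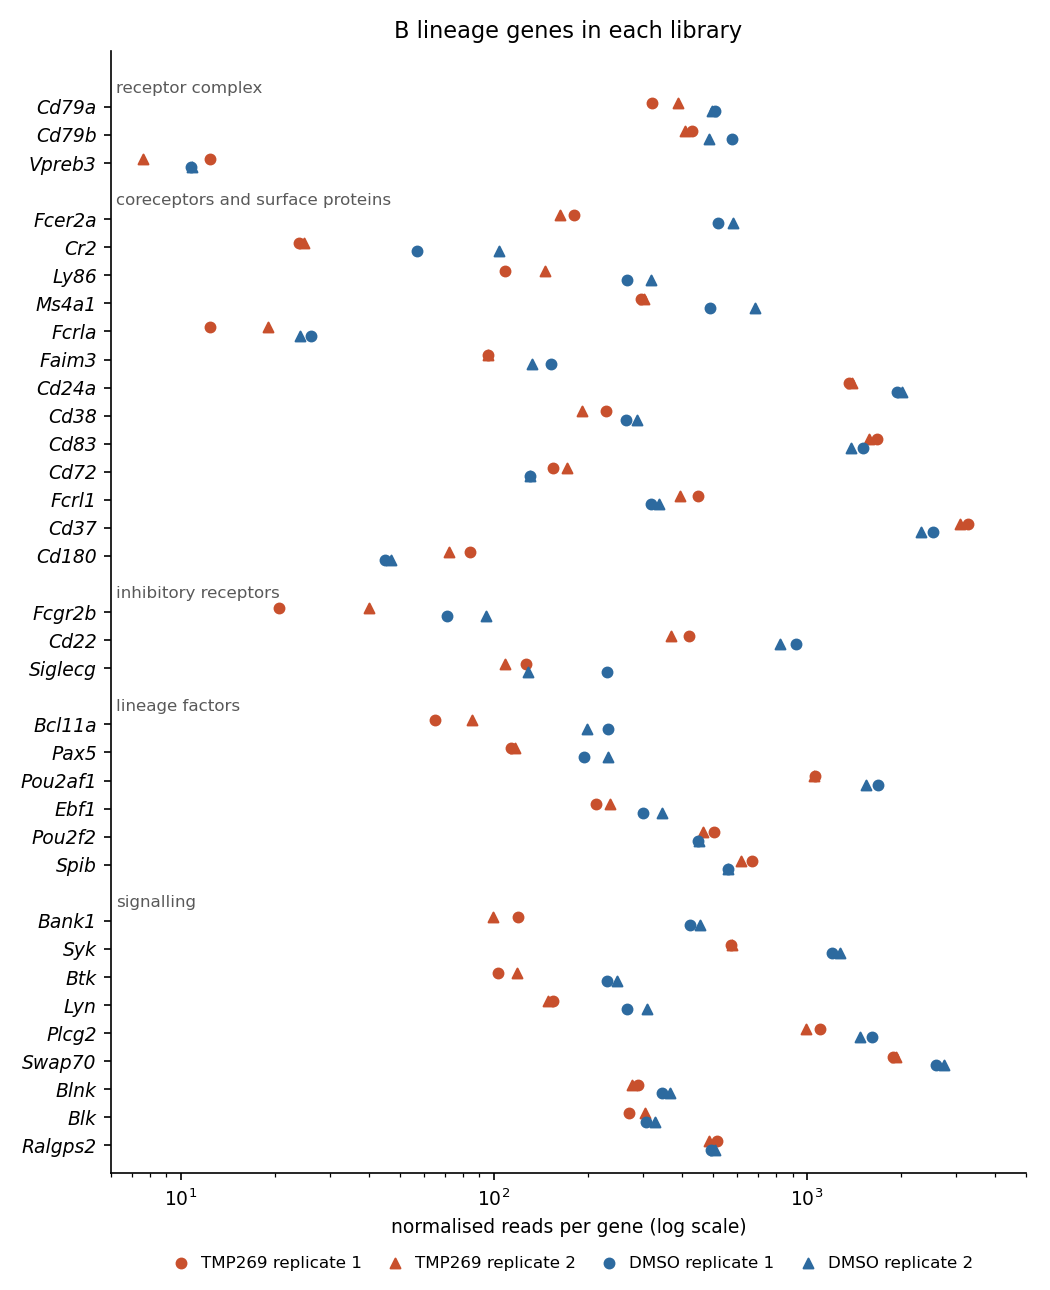
Normalised reads (log scale) of the 34 B lineage genes in each of the 4 libraries, grouped by role; red marks stand for TMP269, blue for DMSO, circles for replicate 1 and triangles for replicate 2. The blue marks lie to the right of the red ones in 25 genes and to the left in 7, among them Cd180, Cd37, Fcrl1 and Spib.

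Of the 3 receptor complex genes, 1 fell. Cd79a, which encodes the Ig-alpha signalling chain, had 319 and 387 normalised reads in TMP269 replicates 1 and 2, against 507 and 497 in DMSO replicates 1 and 2. Both TMP269 libraries were below both DMSO libraries, and Cd79a was called lower (log2 fold change -0.51 ± 0.13 (SE), limma adjusted p = 0.0170), but its adjusted p was 0.107 without TMP269 replicate 1. Cd79b, the Ig-beta chain that pairs with Ig-alpha, had 429 and 407 normalised reads in TMP269 replicates 1 and 2, against 577 and 488 in DMSO replicates 1 and 2. The groups again did not overlap, but Cd79b was not called (log2 fold change -0.34 ± 0.12 (SE), limma adjusted p = 0.0609), except without DMSO replicate 2 (0.0455) and with the replicate number as a block (0.00256). Vpreb3, a protein of the secretory pathway that binds immunoglobulin chains of developing B cells, was close to the lowest measurable level, with 12.4 and 7.60 normalised reads with TMP269 and 10.8 and 10.9 with DMSO, and its groups overlapped. Its log2 fold change had a 95% interval of -1.18 to 0.90, so neither a loss as deep as that of Cd22 nor a rise can be excluded at this depth.

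Among surface proteins, 6 of 13 fell and 2 rose. Fcer2a, the low-affinity IgE receptor CD23 of mature B cells, had 181 and 162 normalised reads in TMP269 replicates 1 and 2, against 519 and 583 in DMSO replicates 1 and 2. The TMP269 libraries held 31.2% of the DMSO level (log2 fold change -1.68 ± 0.13 (SE), limma adjusted p = 0.000164). Cr2, which encodes the complement receptors CD21 and CD35 of mature B cells and follicular dendritic cells, had 23.8 and 24.7 normalised reads in TMP269 replicates 1 and 2, against 56.7 and 104 in DMSO replicates 1 and 2. Its TMP269 libraries were nearly equal while its DMSO libraries were far apart, and it was called lower (log2 fold change -1.62 ± 0.32 (SE), limma adjusted p = 0.00735). Ms4a1, the B cell antigen CD20, had 296 and 301 normalised reads in TMP269 replicates 1 and 2, against 492 and 683 in DMSO replicates 1 and 2. It stood at 50.8% of the DMSO level (log2 fold change -0.96 ± 0.16 (SE), limma adjusted p = 0.00339), with DMSO replicate 2 the higher control library.

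CD180 is a surface receptor of the toll-like family that needs the secreted protein MD-1, encoded by Ly86, to reach the surface. The genes of these partners moved in opposite directions. Ly86 had 109 and 145 normalised reads in TMP269 replicates 1 and 2, against 266 and 318 in DMSO replicates 1 and 2, and fell (log2 fold change -1.21 ± 0.18 (SE), limma adjusted p = 0.00247). Cd180 had 83.7 and 72.2 normalised reads in TMP269 replicates 1 and 2, against 45.0 and 47.0 in DMSO replicates 1 and 2, and rose (log2 fold change 0.74 ± 0.22 (SE), limma adjusted p = 0.0375). The Cd180 call was lost without any 1 of the 4 libraries (adjusted p 0.0745 to 0.227) and with DESeq2 (0.149), although both TMP269 libraries lay above both DMSO libraries. Cd180 rested on 81 and 76 reads with TMP269 and 50 and 39 reads with DMSO.

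Cd37, a tetraspanin of B and T cells, had 3262 and 3084 normalised reads in TMP269 replicates 1 and 2, against 2530.2 and 2317 in DMSO replicates 1 and 2. It rose (log2 fold change 0.39 ± 0.08 (SE), limma adjusted p = 0.00949) and kept an adjusted p under 0.05 without each library in turn. Cd24a, a glycosyl-anchored protein of immature and activated lymphocytes, had 1364 and 1399 normalised reads with TMP269 and 1945 and 2007 with DMSO, and fell (log2 fold change -0.52 ± 0.08 (SE), limma adjusted p = 0.00247). Faim3, the IgM Fc receptor, had 96.1 and 95.9 normalised reads with TMP269 and 152 and 133 with DMSO. It was called lower (log2 fold change -0.56 ± 0.17 (SE), limma adjusted p = 0.0429), but that call was lost without any 1 library (0.0724 to 0.154), with equal library totals (0.104), with edgeR (0.0512) and with DESeq2 (0.152).

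The other 5 surface genes were not called. Fcrl1, an activating Fc receptor-like protein of B cells, had 448 and 393 normalised reads in TMP269 replicates 1 and 2, against 319 and 337 in DMSO replicates 1 and 2. Its TMP269 libraries were both above the DMSO libraries (log2 fold change 0.36 ± 0.12 (SE), limma adjusted p = 0.0576), and it was called higher with equal library totals (0.0334). Cd72, a lectin-like B cell receptor, had 155 and 172 normalised reads with TMP269 and 130.5 and 130.3 with DMSO, and the activation marker gene Cd83 had 1670.3 and 1579 normalised reads with TMP269 and 1509.8 and 1385 with DMSO. In both genes the groups did not overlap and the TMP269 libraries were the higher ones (limma adjusted p = 0.162 for Cd72 and 0.174 for Cd83). Cd38, an ectoenzyme of activated lymphocytes, had 228 and 192 normalised reads with TMP269 and 264 and 286 with DMSO (limma adjusted p = 0.0774). Fcrla, an intracellular Fc receptor-like protein, was low in all libraries, with 12.4 and 19.0 normalised reads with TMP269 and 26.1 and 24.1 with DMSO, and its interval of -1.50 to 0.15 spans both 0 and a deep loss.

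Of the 3 genes grouped here as inhibitory receptors, 2 fell, with Cd72 placed among the surface proteins. Cd22, a sialic acid-binding lectin that dampens B cell receptor signals, had 421 and 369 normalised reads in TMP269 replicates 1 and 2, against 920.5 and 823 in DMSO replicates 1 and 2. It was under 50% of the DMSO level (45.3%, log2 fold change -1.14 ± 0.11 (SE), limma adjusted p = 0.000449). Fcgr2b, the inhibitory IgG receptor of B and myeloid cells, had 20.7 and 39.9 normalised reads in TMP269 replicates 1 and 2, against 71.1 and 94.1 in DMSO replicates 1 and 2. It fell (log2 fold change -1.48 ± 0.33 (SE), limma adjusted p = 0.0129), with an adjusted p of 0.0529 without DMSO replicate 2. Siglecg, a second inhibitory lectin, had 127 and 108 normalised reads in TMP269 replicates 1 and 2, against 229 and 129 in DMSO replicates 1 and 2. DMSO replicate 1 was far above the other 3 libraries, and the gene was not called (log2 fold change -0.55 ± 0.26 (SE), limma adjusted p = 0.143) except without DMSO replicate 2 (0.0125) and with the replicate number as a block (0.00587).

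Of the 6 lineage factor genes, 4 fell. Pax5, which keeps B cell identity, had 114 and 117 normalised reads in TMP269 replicates 1 and 2, against 193 and 232 in DMSO replicates 1 and 2. Its groups were well apart (log2 fold change -0.87 ± 0.16 (SE), limma adjusted p = 0.00589). Ebf1, which acts before and with PAX5, had 212 and 236 normalised reads in TMP269 replicates 1 and 2, against 299.6 and 345 in DMSO replicates 1 and 2. It was called lower with a smaller fold change (log2 fold change -0.52 ± 0.14 (SE), limma adjusted p = 0.0233), and the call was lost without TMP269 replicate 1 (0.0968), without DMSO replicate 2 (0.131), with equal library totals (0.0515) and with DESeq2 (0.0503). Bcl11a, a zinc finger factor needed in early B and plasmacytoid dendritic cell development, had 65.1 and 85.5 normalised reads in TMP269 replicates 1 and 2, against 231 and 199 in DMSO replicates 1 and 2. It had the deepest loss of these factors (log2 fold change -1.51 ± 0.19 (SE), limma adjusted p = 0.00131).

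Pou2af1, a coactivator that binds octamer factors on immunoglobulin promoters, had 1065 and 1054 normalised reads in TMP269 replicates 1 and 2, against 1693 and 1541 in DMSO replicates 1 and 2, and fell (log2 fold change -0.61 ± 0.09 (SE), limma adjusted p = 0.00188). Pou2f2, the octamer factor Oct-2 with which it works, had 504 and 466 normalised reads in TMP269 replicates 1 and 2, against 449.9 and 452 in DMSO replicates 1 and 2. Pou2f2 was not called (log2 fold change 0.10 ± 0.11 (SE), limma adjusted p = 0.495). Spib, an ETS factor of B and plasmacytoid dendritic cells, had 667 and 615 normalised reads in TMP269 replicates 1 and 2, against 559 and 561 in DMSO replicates 1 and 2, and was not called either (log2 fold change 0.19 ± 0.10 (SE), limma adjusted p = 0.179). For both genes the TMP269 libraries were the higher ones.

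Of the 9 signalling genes, 6 fell and 3 were not called. Bank1, a scaffold that links B cell receptor kinases to calcium release, had 119.9 and 99.7 normalised reads in TMP269 replicates 1 and 2, against 424 and 456 in DMSO replicates 1 and 2. The TMP269 libraries held 25% of the DMSO level (log2 fold change -2.00 ± 0.15 (SE), limma adjusted p = 0.000153). Of the Src family kinase genes that act first at the receptor, Lyn had 154 and 149 normalised reads with TMP269 and 266 and 309 with DMSO, and fell (log2 fold change -0.92 ± 0.15 (SE), limma adjusted p = 0.00311). Blk, the other one, had 271 and 305 normalised reads with TMP269 and 306 and 327 with DMSO. The Blk groups were close together and it was not called (log2 fold change -0.14 ± 0.13 (SE), limma adjusted p = 0.450).

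Syk, the kinase that binds the phosphorylated receptor tails, had 573 and 577 normalised reads in TMP269 replicates 1 and 2, against 1203 and 1276 in DMSO replicates 1 and 2. It fell to under 50% (46.4%, log2 fold change -1.11 ± 0.09 (SE), limma adjusted p = 0.000166), with replicates in close agreement. Btk, the Tec family kinase lost in X-linked agammaglobulinaemia, had 103 and 119 normalised reads with TMP269 and 230.3 and 247 with DMSO, and fell by a similar amount (log2 fold change -1.10 ± 0.16 (SE), limma adjusted p = 0.00196). Plcg2, the phospholipase that BTK activates, had 1103 and 992 normalised reads with TMP269 and 1618 and 1474 with DMSO, and fell with a smaller fold change (log2 fold change -0.56 ± 0.09 (SE), limma adjusted p = 0.00370). Blnk, the adaptor that brings them together, had 288 and 277 normalised reads with TMP269 and 344 and 364 with DMSO, and was not called (log2 fold change -0.32 ± 0.12 (SE), limma adjusted p = 0.0770). Swap70, a guanine nucleotide exchange factor of the cytoskeleton, had 1883 and 1922 normalised reads with TMP269 and 2586 and 2739 with DMSO, and fell (log2 fold change -0.48 ± 0.08 (SE), limma adjusted p = 0.00315). Ralgps2, an exchange factor for Ral GTPases, was level, with 516 and 487 normalised reads with TMP269 and 495 and 510.2 with DMSO (95% interval of the log2 fold change -0.24 to 0.23).

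A uniform loss would give a common fold change to genes read from B cells alone. Shared genes can also be read from other cells, so their departures from it do not bear on that question. The B restricted genes are largely and not wholly restricted to B cells, since Cr2 is also known from follicular dendritic cells, which limits the comparison. The median of the 14 B restricted genes, a log2 fold change of -0.61 or 65.5% of the DMSO level, was taken as that common value. Among the 14 B restricted genes, 8 had a 95% interval that held the common value. Intervals wholly below it were those of 4, Bank1, Fcer2a, Cr2 and Cd22, and wholly above it those of 2, Blk and Fcrl1. Over all 34 genes, most of them shared, 15 intervals held it, 9 lay below and 10 above. The shared genes below it were Bcl11a, Fcgr2b, Ly86, Syk and Btk. Those above it were Blnk, Ralgps2, Pou2f2, Cd83, Spib, Cd72, Cd37 and Cd180. Of the 11 genes shared with myeloid or dendritic cells, 2 intervals held it, 5 lay below and 4 above. Of the 9 shared with T cells, 5 held it and 4 lay above. These intervals treat the median as fixed, although it comes from the same libraries, and they are not adjusted for the number of genes.

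**Figure D2:**
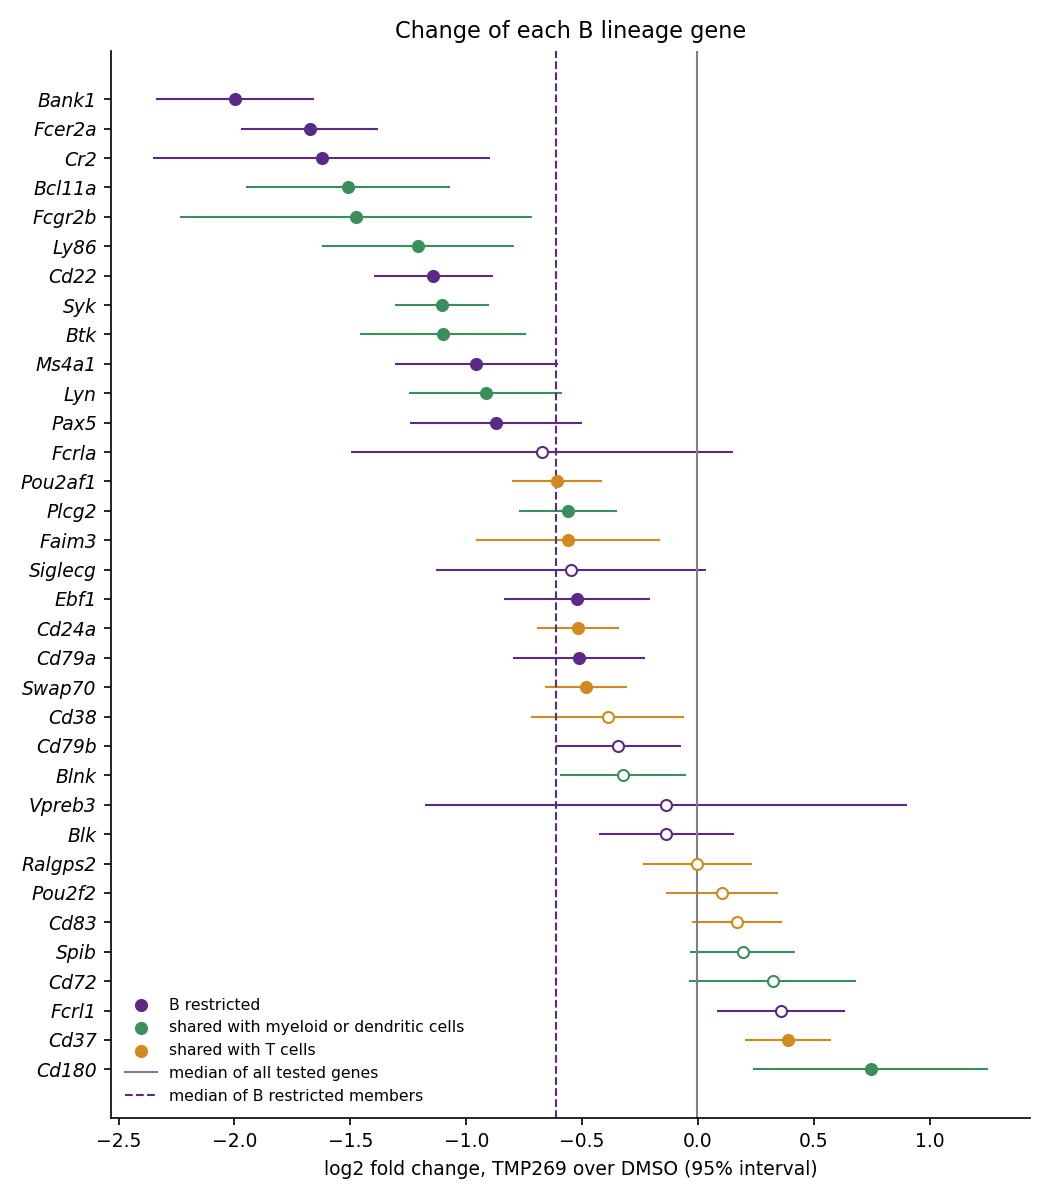
Log2 fold change of each of the 34 genes, TMP269 over DMSO, with its 95% interval; filled marks passed the limma test and colours give the class. The dashed line is the median of the B restricted genes (-0.61) and the grey line that of all tested genes (0.00). Of the 14 B restricted intervals, 4 lie left of the dashed line and 2 right of it. Of all 34, which include the shared genes, 9 lie left and 10 right.

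The make-up of the B restricted reads was also set side by side, which no scaling of whole libraries can alter. Each share below is that of 1 gene among the summed reads of the 14 B restricted genes, with its 95% exact (Clopper-Pearson) binomial interval, which covers counting error only. Bank1 made up 4.02% (3.33 to 4.8) and 3.4% (2.79 to 4.1) in TMP269 replicates 1 and 2, against 8.68% (7.95 to 9.46) and 9.05% (8.2 to 9.96) in DMSO replicates 1 and 2. Fcer2a made up 6.06% (5.22 to 6.99) and 5.53% (4.75 to 6.4) in TMP269 replicates 1 and 2, against 10.6% (9.83 to 11.5) and 11.6% (10.6 to 12.6) in DMSO replicates 1 and 2. For both genes the TMP269 intervals lie wholly below the DMSO intervals. This was not so for Cd22 and Cr2, whose fold changes also lay below the common value. Cd22 had 12.8 to 15.4 in TMP269 replicate 1 and 15.2 to 17.5 in DMSO replicate 2, which overlap. Cr2 had 0.506 to 1.19 and 0.55 to 1.23 in TMP269 replicates 1 and 2, which overlap 0.894 to 1.48 in DMSO replicate 1. Intervals of counting error can also be apart between replicates of 1 group, as within DMSO for Ms4a1 (9.3 to 10.9 in replicate 1 and 12.5 to 14.6 in replicate 2) and Siglecg (4.15 to 5.3 in replicate 1 and 2.1 to 3.09 in replicate 2), so their separation is a description and no test of the groups. Fcrl1 made up 15% (13.7 to 16.4) and 13.4% (12.2 to 14.7) in TMP269 replicates 1 and 2, against 6.53% (5.88 to 7.22) and 6.68% (5.94 to 7.48) in DMSO replicates 1 and 2, and its TMP269 intervals lie wholly above. Blk made up 9.07% (8.05 to 10.2) and 10.4% (9.33 to 11.5) in TMP269 replicates 1 and 2, against 6.27% (5.64 to 6.95) and 6.49% (5.76 to 7.28) in DMSO replicates 1 and 2, also apart. Cd79a made up 10.7% (9.6 to 11.9) and 13.2% (12 to 14.4) in TMP269 replicates 1 and 2, against 10.4% (9.6 to 11.2) and 9.87% (8.98 to 10.8) in DMSO replicates 1 and 2. Its intervals overlap between TMP269 replicate 1 and the DMSO libraries. Pax5 kept nearly the same share in the 4 libraries, 3.81% (3.14 to 4.57) and 3.98% (3.32 to 4.73) in TMP269 replicates 1 and 2, against 3.96% (3.46 to 4.52) and 4.6% (3.98 to 5.28) in DMSO replicates 1 and 2. A share rises when those of other genes fall, so these values show unequal change and not which gene moved.

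**Figure D3:**
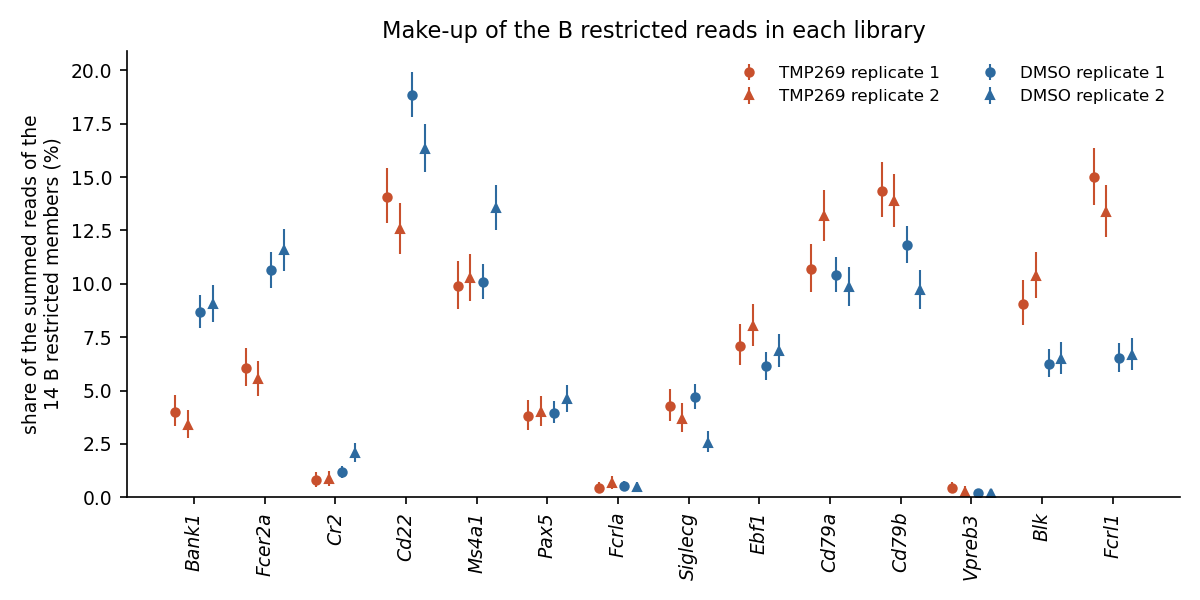
Share (%) of each B restricted gene in the summed reads of all 14, per library, with 95% exact binomial intervals; red marks stand for TMP269, blue for DMSO, circles for replicate 1 and triangles for replicate 2. Bank1 and Fcer2a hold smaller shares with TMP269, Blk and Fcrl1 larger ones, and Pax5 similar ones.

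Ratios of pairs of genes, most of them partners, were also taken within each library. The pairs were chosen with their values known and not all that were taken are given, so the ratios are descriptions. The ratio of Cd79b to Cd79a was 1.34 and 1.05 with TMP269, against 1.14 and 0.983 with DMSO, and the groups overlapped. The ratio of Cd180 to Ly86 was 0.771 and 0.497 with TMP269, against 0.169 and 0.148 with DMSO, a 3.92-fold difference. That of Fcrl1 to Fcer2a was 2.47 and 2.42 with TMP269, against 0.614 and 0.578 with DMSO, a 4.11-fold difference with close replicates. These genes are not partners and lie near opposite ends of the B restricted fold changes, so this difference follows from the choice of the pair. Among kinases and adaptors, the ratio of Lyn to Blk was 0.569 and 0.489 with TMP269, against 0.871 and 0.945 with DMSO, and that of Blnk to Btk 2.79 and 2.34 with TMP269, against 1.49 and 1.47 with DMSO. Pou2f2 to Pou2af1 stood at 0.474 and 0.442 with TMP269, against 0.266 and 0.293 with DMSO. In each of these 5 the groups did not overlap, whereas the receptor chains Cd79a and Cd79b kept their ratio within the spread of replicates. How often the groups are apart over all pairs of genes was not counted.

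**Figure D4:**
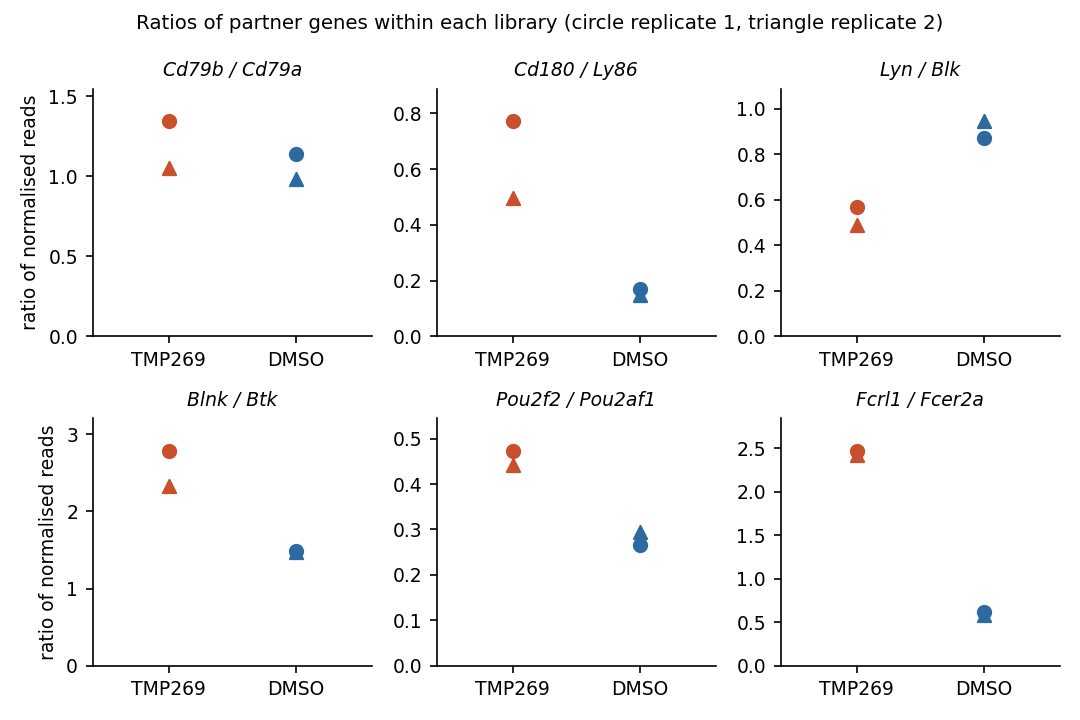
Ratio of normalised reads of 6 pairs of genes within each library, with TMP269 on the left and DMSO on the right of each panel; circles are replicate 1 and triangles replicate 2. The groups overlap for Cd79b over Cd79a and are apart for the other 5 pairs.

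Replicates of a group differed by less than the larger of these changes. The median size of the log2 difference between replicates over the 34 genes was 0.15 within TMP269 and 0.12 within DMSO. Differences above 0.5 were seen in 3 genes with TMP269 (Fcgr2b, Fcrla and Vpreb3) and in 2 with DMSO (Cr2 and Siglecg). Within DMSO they ran in opposite directions, with Siglecg higher in replicate 1 and Cr2 and Ms4a1 higher in replicate 2.

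Promoter sequence was also read. RefSeq windows (build GRCm38.p6, 250 bases before to 50 bases after the transcription start) were matched by symbol to 28 of the 34 genes, 35 windows in all, with Faim3 matched under its current symbol Fcmr. Each window was searched on both strands for 4 motifs: the octamer ATGCAAAT bound by Oct-2, the EBF1 core CCCNNGGG, the core GAGGAAGT bound by PU.1 and Spi-B, and the MEF2 motif, the site of the factors through which class IIa histone deacetylases act. The core GAGGAAGT was present in 3 of the 35 windows, those of Fcrl1, Cd72 and Cd37, against 3.20% of all 32851 windows. By fold change these 3 genes were among the 4 highest, but of them only Cd37 was called. A link of the core to the change was not tested. In each the match starts close to the transcription start (15, 49 and 25 bases before it in Fcrl1, Cd72 and Cd37). The EBF1 core was in 3 windows, those of Bank1, Cd22 and Spib, which is 8.57% of the 35 against 13.7% of all windows. Of these 3 genes Spib was not called. The MEF2 motif was in the windows of Cd22 and Fcrl1 (5.71% against 3.19%), and the octamer in those of Blnk and Vpreb3 (5.71% against 1.74%). The windows of Fcer2a and Cr2, whose losses were deeper than that of Cd22, held no match. The windows of Fcrl1, Cd72 and Cd37 are shown for the shared core, and those of Cd22 and Bank1, among the deeper losses, for the EBF1 core; capitals mark all matches, including those to MEF2 in Cd22 and Fcrl1, and no matches overlap in these windows.
Fcrl1 (chr3:87376137-87376436, plus strand): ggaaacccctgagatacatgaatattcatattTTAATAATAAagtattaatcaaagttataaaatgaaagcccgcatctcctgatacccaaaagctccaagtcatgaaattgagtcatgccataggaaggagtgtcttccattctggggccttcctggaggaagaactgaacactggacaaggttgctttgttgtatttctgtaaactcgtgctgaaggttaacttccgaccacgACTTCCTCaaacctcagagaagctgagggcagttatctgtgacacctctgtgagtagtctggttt
Cd72 (chr4:43454577-43454876, minus strand): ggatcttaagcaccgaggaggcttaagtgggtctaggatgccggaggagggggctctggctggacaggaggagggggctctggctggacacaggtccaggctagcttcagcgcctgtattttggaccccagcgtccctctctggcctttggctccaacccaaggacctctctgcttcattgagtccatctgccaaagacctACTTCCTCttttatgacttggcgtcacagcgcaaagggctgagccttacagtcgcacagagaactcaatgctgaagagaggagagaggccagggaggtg
Cd37 (chr7:45238790-45239089, minus strand): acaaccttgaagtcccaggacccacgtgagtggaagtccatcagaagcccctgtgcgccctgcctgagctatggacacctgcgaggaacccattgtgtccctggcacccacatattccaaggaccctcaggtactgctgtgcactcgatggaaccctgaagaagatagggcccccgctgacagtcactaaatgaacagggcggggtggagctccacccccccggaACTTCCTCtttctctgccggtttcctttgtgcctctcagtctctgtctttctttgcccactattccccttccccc
Cd22 (chr7:30878979-30879278, minus strand): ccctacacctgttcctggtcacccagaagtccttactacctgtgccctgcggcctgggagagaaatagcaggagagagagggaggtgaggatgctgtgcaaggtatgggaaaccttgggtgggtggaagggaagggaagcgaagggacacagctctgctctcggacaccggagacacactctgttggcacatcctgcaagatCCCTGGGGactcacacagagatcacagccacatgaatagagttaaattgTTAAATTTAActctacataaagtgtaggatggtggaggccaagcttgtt
Bank1 (chr3:136326017-136326316, minus strand): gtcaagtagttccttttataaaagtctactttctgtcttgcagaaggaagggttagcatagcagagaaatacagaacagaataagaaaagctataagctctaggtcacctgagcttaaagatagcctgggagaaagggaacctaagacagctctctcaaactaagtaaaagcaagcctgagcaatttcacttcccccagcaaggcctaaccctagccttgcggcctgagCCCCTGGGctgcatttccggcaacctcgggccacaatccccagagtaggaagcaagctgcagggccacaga
The core GAGGAAGT appears on its other strand, as ACTTCCTC, in all 3 windows that hold it. A match is a description of these letters and not a shown binding site, and the fold changes were already known when the windows were searched. Of the factors that bind this core, Spib was not called, as given above, and Spi1, which encodes PU.1, had 51.7 and 59.8 normalised reads with TMP269 and 132 and 142 with DMSO (log2 fold change -1.29 ± 0.20 (SE), limma adjusted p = 0.00253).

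Further B lineage genes outside the 34 also differed in size and direction of change. Among all tested genes 14.7% were called lower and 12.8% higher, and the counts of this and the following lists stand beside those shares. The lists are short, and none was tested as a set. Of 11 tested B cell surface genes of a second list, 4 fell and 2 rose (median log2 fold change -0.36). Tnfrsf13c, the BAFF receptor gene, fell (-0.63 in log2, limma adjusted p = 0.00311). Gpr183, an oxysterol receptor of migrating lymphocytes, rose (0.56, limma adjusted p = 0.00266), as did the tetraspanin gene Cd9 (0.55, limma adjusted p = 0.0171). Of the immunoglobulin and surrogate light chain list only Igj and Vpreb1 were matched in the table, and the remaining genes are not analysed here. Igj, the joining chain of secreted antibody, had 14.5 and 16.1 normalised reads with TMP269 and 27.0 and 16.9 with DMSO, and Vpreb1, a surrogate light chain of progenitors, was under 5 in all 4 libraries.

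Among 14 tested further lineage and plasma cell factors, 6 fell and 3 rose (median -0.13). Mef2c, a MEF2 factor of B and myeloid cells, had 113 and 117 normalised reads in TMP269 replicates 1 and 2, against 425 and 437 in DMSO replicates 1 and 2. Its loss was near that of Bank1 (log2 fold change -1.90 ± 0.13 (SE), limma adjusted p = 0.000127). Dntt, the terminal transferase of lymphocyte progenitors, fell too (log2 fold change -1.87 ± 0.28 (SE), limma adjusted p = 0.00252), on 28.9 and 53.2 normalised reads with TMP269 and 149 and 144 with DMSO. Those that rose include Bach2 (0.42, limma adjusted p = 0.0105) and Foxo1 (0.35, limma adjusted p = 0.0163). Of 24 further receptor signalling genes, 6 fell, led by the Src family kinase gene Fgr (-2.02, limma adjusted p = 0.000972) and the B cell adaptor gene Pik3ap1 (-0.79, limma adjusted p = 0.00493). In that list 4 rose, among them Nfatc1 (0.58, limma adjusted p = 0.00188), and the list median was 0.04. The shares over all tested genes were 14.7% lower and 12.8% higher.

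Of 10 MHC class II genes, which B cells, dendritic cells and macrophages use to present antigen, 4 fell (median -0.36). The chains of the I-A molecule differed: H2-Ab1 had 1659 and 1628 normalised reads with TMP269 and 3456 and 3149 with DMSO (log2 fold change -1.00 ± 0.08 (SE), limma adjusted p = 0.000165), whereas H2-Aa had 1332 and 1225 normalised reads with TMP269 and 1632 and 1415 with DMSO (log2 fold change -0.25 ± 0.10 (SE), limma adjusted p = 0.0873). Cd74, the invariant chain, fell as well (-0.54, limma adjusted p = 0.00350).

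Markers of other cell types that a spleen preparation could hold were read as well, and some of them were well above the filter. The 16 myeloid markers in the table summed to 789 and 793 normalised reads with TMP269 and to 911 and 889 with DMSO, and 7 passed the filter, of which 2 fell and 1 rose. The defining myeloid genes Lyz2 (5.17 and 14.2 normalised reads with TMP269 and 1.80 and 2.41 with DMSO) and Itgam (8.27 and 13.3 normalised reads with TMP269 and 11.7 and 13.3 with DMSO) were near the floor. The markers that fell were Cybb (-0.93, limma adjusted p = 0.00163) and Mpeg1 (-0.82, limma adjusted p = 0.00732), which B cells express too, and Cd68 rose (1.63, limma adjusted p = 0.000485). Cybb had 189 and 192 normalised reads with TMP269 and 367 and 359 with DMSO, Mpeg1 had 244 and 180.5 normalised reads with TMP269 and 363 and 378 with DMSO, and Cd68 had 263 and 299 normalised reads with TMP269 and 97.2 and 83.2 with DMSO. The 8 dendritic cell markers summed to 971 and 982 with TMP269 and to 1313 and 1239 with DMSO. Among these, Flt3 fell (-1.99, limma adjusted p = 0.000576), and Siglech was under 3 in every library. Itgax had 41.3 and 46.5 normalised reads with TMP269 and 28.8 and 20.5 with DMSO. Xcr1 had 19.6 and 29.4 with TMP269 and 12.6 and 10.9 with DMSO, and neither gene was called. At an unadjusted limma p under 0.05, 2 of these markers were lower and 2, Itgax and Xcr1, higher. Most of the dendritic cell sum came from Tcf4, an E protein gene of plasmacytoid dendritic cells and B cells, which had 708 and 686 normalised reads with TMP269 and 922 and 754 with DMSO and was not called. NK markers summed to 369 and 531 with TMP269 and to 449 and 552 with DMSO, with Ncr1 at no more than 1.21 in any library. Cd8a had 98.2 and 134 normalised reads with TMP269 and 101 and 136 with DMSO, and Cd8b1 had 217 and 293 normalised reads with TMP269 and 198 and 254 with DMSO, and neither was called. Epor, the erythropoietin receptor gene and the one tested erythroid marker, fell (-1.15, limma adjusted p = 0.0148), and the 4 erythroid markers summed to 43.4 and 43.7 with TMP269 and to 80.1 and 74.8 with DMSO. The part of these cells in the changes of the 34 genes was not tested.

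No T cell identity gene was called lower. Of 14 tested, 3 were called higher and 11 not called (median 0.11), beside 14.7% called lower and 12.8% higher among all tested genes. None of the 14 was lower at an unadjusted p under 0.05 or by edgeR or DESeq2. Cd5, an inhibitory receptor of T and some B cells, rose (0.58, limma adjusted p = 0.00356), and so did its relative Cd6 (0.50, limma adjusted p = 0.00699). Zap70, the T cell counterpart of Syk, had 6034 and 5754 normalised reads with TMP269 and 5929 and 5555 with DMSO, and was not called (log2 fold change 0.04 ± 0.08 (SE), limma adjusted p = 0.751).

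**Figure D5:**
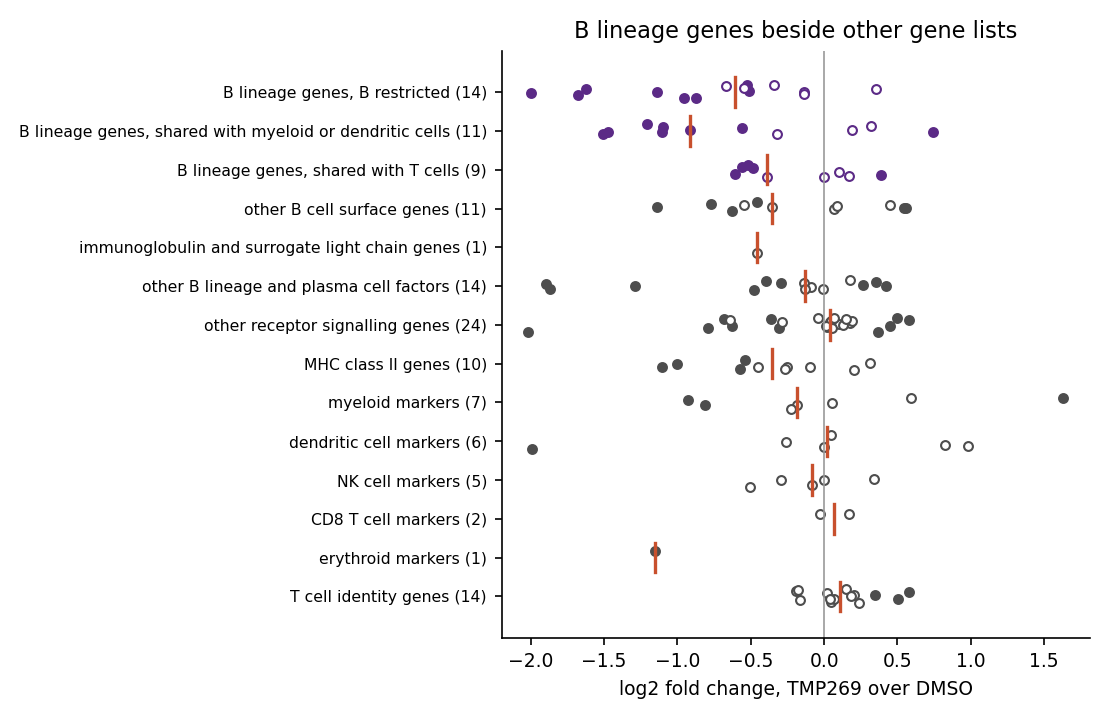
Log2 fold change (TMP269 over DMSO) of the tested genes of the 3 classes of B lineage genes (purple) and of 11 other lists (grey), 1 point per gene; filled points passed the limma test, red bars are list medians and the number of tested genes is in brackets. The classes of B lineage genes have medians of -0.61, -0.92 and -0.39, and the T cell identity genes one of 0.11.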

How the data were processed

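RNA libraries were made from polyadenylated RNA, per the labels' protocols. The submitters' processing notes name CASAVA 1.4, Bowtie2, TopHat2 2.1.0, HTSeq, DESeq2 and the build mm9, without a role for each. These sources do not give the annotation, the strand setting or the treatment of reads with several matches, so counts of overlapping genes and of genes with close copies or pseudogenes (Cd24a, Fcgr2b and Cr2 among them) are uncertain. The deposited values are a normalised signal: the read counts of each library divided by 1 size factor (0.968 and 1.05 for TMP269 replicates 1 and 2, 1.11 and 0.829 for DMSO replicates 1 and 2). Dividing by the smallest non-zero value of each library gave whole reads for 100% of values, within 1e-06 of a whole number. The control columns of the deposited table are headed WT and were joined to the DMSO samples through the sample descriptions. The chromatin immunoprecipitation samples are not analysed here.

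The test was limma 3.58.1 (R 4.3.3), two-sided, on log2(value + 1), using a trend of variance with level and no covariate, for genes that reached 10 in 2 or more libraries. Calls were made at an adjusted p under 0.05 (Benjamini-Hochberg, over all 12535 genes tested). Fold changes on this scale understate those of low genes. Alternatives were pseudocounts of 0.5 and 5, other filters, equal library totals, TMM factors, edgeR 4.0.16 and DESeq2 1.42.0 on the recovered reads (edgeR called 3406 genes), a threshold of 0.01, the replicate number as a block and each library left out in turn. Leaving out 1 library leaves a group with a single one, whose spread is then taken from the other group. All 34 genes are named, and, of the other lists, up to 2 called genes in each direction by smallest p together with defining markers. Il17a, Rn45s, Igj, Vpreb1, H2-Aa, Spi1, Tcf4, Xcr1, Cd8b1 and Zap70 were added after their values were seen, and not every gene the rule allows is printed. The genes, their classes, the lists and the motifs were chosen with earlier results of these data known. Replicate pairs differed by more than sampling noise (chi-square per degree of freedom 11.3 within TMP269 and 21.9 within DMSO), so all libraries were kept as separate.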

Additional observations from a re-analysis of the deposited data

How the results depend on the processing

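The 19 falls among the 34 genes were 15 to 19 under the alternatives other than the replicate block. The 2 rises were 1 with no filter on low values, with DESeq2 and at an adjusted p under 0.01, and 1 without each library in turn. Equal library totals moved the median of all tested genes by 0.10. With them the median log2 fold change of the 34 genes was -0.43, that of the B restricted genes -0.51 and that of their summed level -0.64 (against -0.74), 1 B restricted gene was called higher, and 1042 of all genes were called lower. The B restricted median was -0.55 with a pseudocount of 5 and ran from -0.77 to -0.56 with a library left out. At an adjusted p under 0.01, 1487 of all genes were called (770 lower and 717 higher) and 23 genes of the other lists. With a library left out, calls over all genes ran from 2078 to 3675 (1015 to 1873 lower and 1063 to 1802 higher).

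The sign of Ralgps2, which was never called, turned positive with equal totals (0.10), TMM factors (0.0051), edgeR (0.011), DESeq2 (0.0057), without TMP269 replicate 2 (0.038) and without DMSO replicate 2 (0.019). With a library left out it ran from -0.044 to 0.038, and that of Vpreb3 from -0.46 to 0.18. Samples share only a replicate number, and 2 numbers cannot show a pairing (the replicate differences of the groups correlated at 0.371 over genes). With the replicate block, 6360 genes were called (3352 lower and 3008 higher), 56 of the other lists, and of the 34 genes 23 were lower, 10 of them B restricted, and 5 higher, 1 of them B restricted. The cause of these shifts was not tested. Depth limits Vpreb3, Fcrla, Fcgr2b and Cr2 most.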
